A study of Rattus norvegicus with 8 samples.

Results

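Glycine receptors are the chloride channels through which inhibitory interneurons of the spinal cord silence motoneurons, and gephyrin is the scaffold that holds them at the synapse. The genes described here are Glra1, Glra2 and Glra3, which encode the alpha 1, alpha 2 and alpha 3 subunits, Glrb, which encodes the beta subunit, and Gphn, which encodes gephyrin. They were taken as every probe set on the array whose single annotated gene symbol was one of these 5, out of 14217 gene symbols so annotated. That gave 9 probe sets: 2 for Glra1, 2 for Glra2, 1 for Glra3, 3 for Glrb and 1 for Gphn. Of these, 6 passed a filter on dim values and were tested, and 3 did not.

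The samples were spinal motoneurons of the lumbar cord of Wistar albino rats, collected by laser capture from thin frozen sections after cresyl violet staining. Animals of 4 litters were divided between postnatal day 1 (P1), during myelination, and postnatal day 21 (P21), after it. Each age had 4 biological replicates, each a pool of motoneurons from 4 rats hybridised to 1 Affymetrix rat array after 2 rounds of amplification primed at the poly(A) tail. The question was how transcripts of the captured motoneurons differ between these ages.

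Each glycine receptor is a ring of subunits. Alpha subunits carry most of the glycine binding and set how fast the channel closes, and can form channels alone. The beta subunit binds gephyrin and so places the receptor opposite glycine-releasing terminals. In the rodent cord the receptor is known to pass from a form containing alpha 2 around birth to a synaptic form of alpha 1 with beta in the adult. Gephyrin also anchors GABA-A receptors, and apart from the synapse it makes the molybdenum cofactor of several oxidases.

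The start regions of Glra2 and Glrb are shown because the alpha 2 transcript had the widest change of the group and the beta transcript, whose protein can assemble with it, one of the narrowest. Each is the 250 bases before the transcript start in RefSeq's GRCr8 assembly, 5′ to 3′ on the gene's own strand. Glra2 lies on the plus strand at chrX:32651937-32652186, and Glrb on the minus strand at chr2:168505615-168505864. Capitals mark matches on either strand, none of which overlapped. The GC box was searched as GGGCGG, the letters of a site for Sp-family factors. The TATA box was searched as TATAAA, the core promoter element. The E-box was searched as CANNTG, the site of helix-loop-helix factors, and the CCAAT box by the letters of its name.
Glra2: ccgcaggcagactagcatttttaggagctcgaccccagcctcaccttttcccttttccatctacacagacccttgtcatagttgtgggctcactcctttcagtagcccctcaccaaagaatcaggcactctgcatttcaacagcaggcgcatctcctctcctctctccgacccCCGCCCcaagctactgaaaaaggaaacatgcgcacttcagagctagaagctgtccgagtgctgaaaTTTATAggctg
Glrb: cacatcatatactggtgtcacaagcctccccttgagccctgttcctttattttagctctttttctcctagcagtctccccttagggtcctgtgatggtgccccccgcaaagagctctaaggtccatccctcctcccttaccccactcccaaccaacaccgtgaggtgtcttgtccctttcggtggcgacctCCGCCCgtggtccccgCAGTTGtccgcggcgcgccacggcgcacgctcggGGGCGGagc
The Glra2 window held 1 GC box, 1 TATA box on the opposite strand, no E-box and no CCAAT box, with 52.4% G or C and 7 CpG dinucleotides. The Glrb window held 2 GC boxes and 1 E-box, with 61.2% G or C and 16 CpG dinucleotides. Windows of this length before 33469 rat transcript starts had a median of 51.2% G or C and 5 CpG dinucleotides. A GC box was present in 30.5% of them, a TATA box in 12.9%, an E-box in 65.5% and a CCAAT box in 34.0%. The windows of Glra3 and Gphn were also found, with 4 and 32 CpG dinucleotides, and Glra1 was not matched. These matches describe letters only, and no binding was measured.

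Below, an intensity is the deposited linear value, given ± SD with n = 4 arrays per age, and a change is the P21 minus the P1 mean of log2(intensity + 16), given ± its standard error. The filter level of an array is its 40th percentile, between 221 and 287 in intensity, and a probe set was tested when it exceeded that level on at least 4 of the 8 arrays. Adjusted p-values come from limma with Benjamini-Hochberg adjustment over all 19155 tested probe sets, and a value under 0.05 is a call. An intensity cannot be compared between probe sets, since each binds its target with its own strength.

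Of the 6 tested probe sets of the group, 2 were called higher at P21, 2 were called lower and 2 were not called. Over all tested probe sets, 38.3% were called, 20.8% higher and 17.4% lower, so the group's share of 4 in 6 rests on too few probe sets to be set apart from that background. The median change was 0.15 over the 6 and 0.07 over all tested. The group differs within itself more than this median shows, with Glra2 and Glra1 far out in opposite directions and the others near 0. The split of all calls depended on scaling: 3990 were higher and 3339 lower as deposited, and 2631 higher and 4184 lower with each array centred on its median, which lowered the median change to -0.07. In 4 of the 6 the intensities at one age all lay on one side of those at the other, against 38.0% of all tested.

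**Figure D1:**
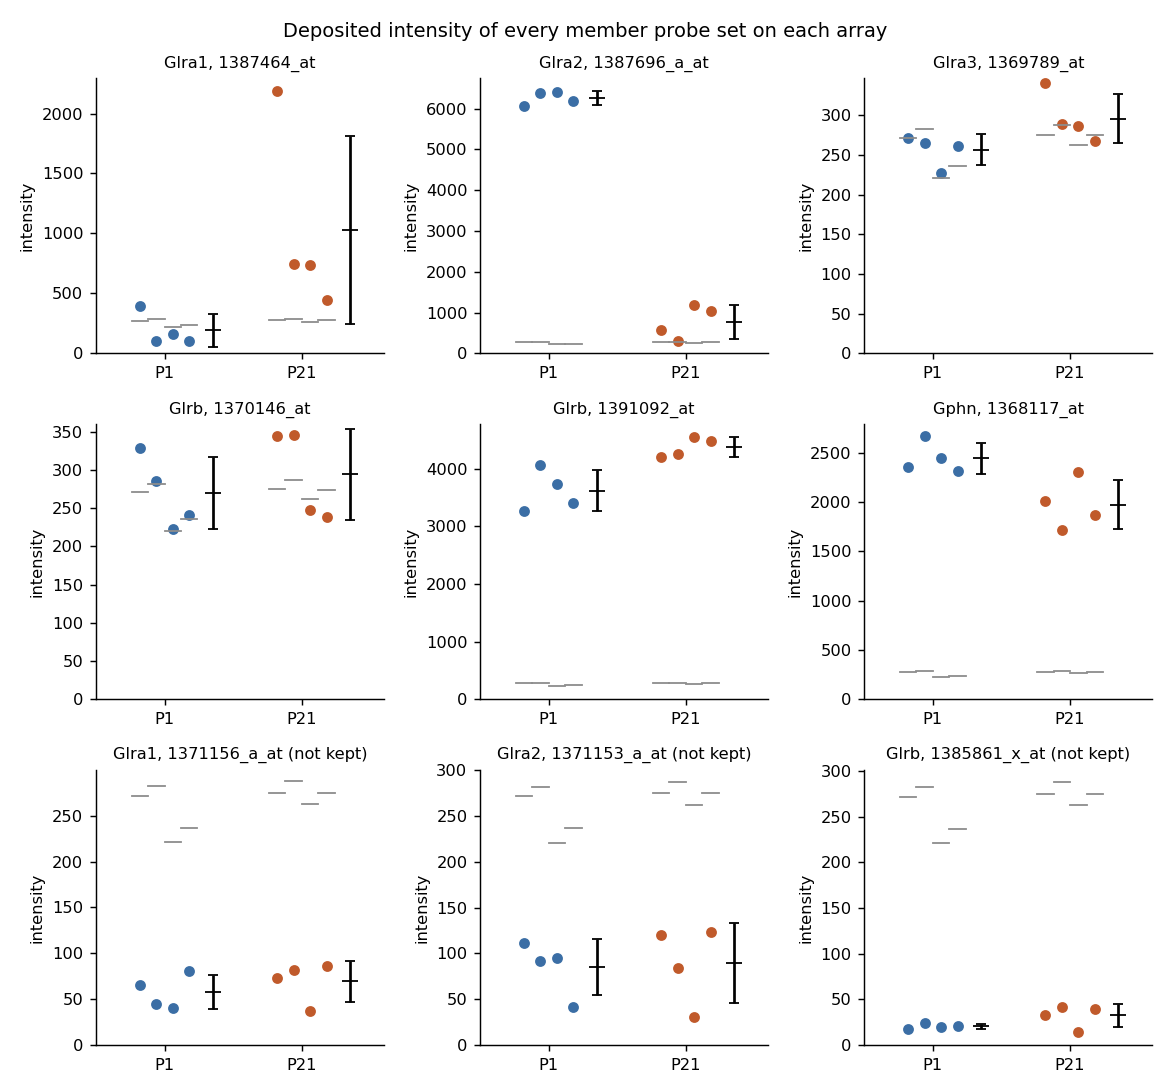
Each panel plots the deposited intensity (vertical axis, linear, from 0) of 1 probe set on the 4 P1 arrays (blue) and the 4 P21 arrays (orange), in replicate order from left to right, with mean ± SD in black and each array's filter level as a grey dash. Glra2 stood between 6057 and 6406 at P1 and between 294 and 1193 at P21, Glra1 went the other way, and the 3 panels of the bottom row lie under the filter level on every array.

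Glra2, the alpha 2 subunit gene, fell. On probe set 1387696_a_at the P1 arrays read 6057, 6396, 6406 and 6181 for replicates 1 to 4, and the P21 arrays read 574, 294, 1193 and 1047. The P1 arrays were close together and all far above the P21 arrays, which spread over a wider relative range. The P1 readings lay between the 98.4 and 99.0 percentile of their arrays, where differences between arrays may show less. The mean went from 6260 ± 170 to 777 ± 417, a change of -3.17 ± 0.37 (limma adjusted p = 0.000130), or 9.01-fold lower. By size this was the 52nd lowest change of the 19155 tested, and 0.271% of them were as low or lower. All 4 P21 arrays stayed above their filter level, although replicate 2, at 294, was just above its level of 287. In such pools fewer cells of a type and less RNA per cell cannot be told apart, here or in the results that follow.

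Glra1, the alpha 1 subunit gene of the adult receptor, rose. On probe set 1387464_at the P1 arrays read 395, 106, 161 and 103, and the P21 arrays read 2186, 741, 734 and 446. Of the P1 arrays only replicate 1 was above its filter level, while all 4 P21 arrays were. The lowest P21 array still exceeded the highest P1 array, so the ages did not overlap, but the gap between them, 395 to 446, was small beside the spread at P21. The mean went from 191 ± 138 to 1027 ± 785, a change of 2.27 ± 0.51 (limma adjusted p = 0.00628), or 4.84-fold higher on the scale of intensity plus 16. Since 3 of the 4 P1 arrays were under their filter level, that size rests partly on dim readings, and with those 3 set at their filter level the fold was 2.98. The 95% interval of the change was 1.13 to 3.42. Without P21 replicate 1, the brightest array, the change was 1.83 and the adjusted p 0.0102.

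Much of the spread of Glra1 went with the replicate number. The array numbered 1 was the brightest at both ages, and the array numbered 4 the dimmest at both. At P1, however, number 4 at 103 barely differed from number 2 at 106, and both were under their filter levels. Between same-numbered arrays the rise was 2.42, 2.63, 2.08 and 1.96 for numbers 1 to 4, a narrower range than either age alone. With the replicate number as a block the change was the same and the adjusted p was 8.17e-05. The Glra2 fall differed more from number to number, at -3.36, -4.37, -2.41 and -2.54. P1 arrays barely differed in Glra2, so that range came from P21, where numbers 1 and 2 read lower than numbers 3 and 4.

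**Figure D2:**
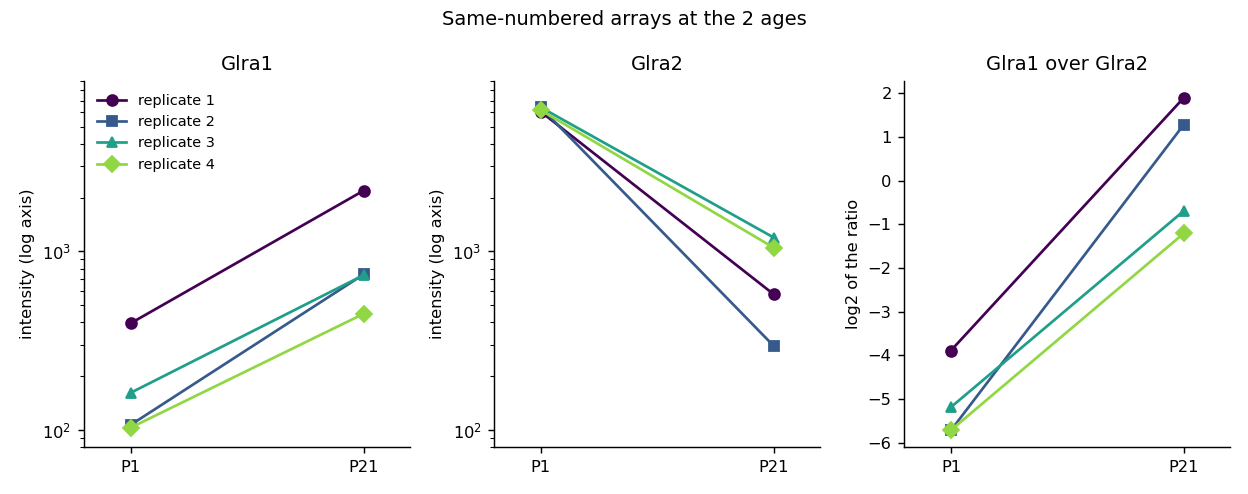
Lines join the P1 and P21 arrays that share a replicate number, for the intensity of Glra1 and of Glra2 (log axes) and for log2 of their ratio within each array (linear axis, whose zero has no meaning because the probe sets differ). The Glra1 lines run nearly parallel, with rises of 1.96 to 2.63, while the Glra2 lines start together and fan out at P21.

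Within arrays, the balance of these alpha subunit transcripts turned by 5.45 on the log2 scale. The log2 ratio of Glra1 to Glra2 was -5.12 ± 0.86 at P1 and 0.32 ± 1.50 at P21, with no overlap. Only 1 P1 array was above its filter level for Glra1, so the size of this turn rests partly on dim readings. An exact two-sided permutation test over the 8 arrays gave p = 0.0286, the smallest that 70 splits allow, and 0.0357 after Benjamini-Hochberg adjustment over the 10 pairs of the 5 genes. Since Glra1 rose and Glra2 fell, each with no overlap, that p was fixed in advance and restates the single genes. P21 replicates 1 and 2 stood at 1.90 and 1.29, and replicates 3 and 4 at -0.69 and -1.20. The P21 arrays thus spread widely, with the numbers 1 and 2 above the numbers 3 and 4.

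Glra3, the alpha 3 subunit gene, read close to the filter level at both ages. The P1 arrays read 272, 265, 228 and 261, and the P21 arrays 340, 289, 286 and 268. Of the 8 arrays, 5 were above their filter level, 2 at P1 and 3 at P21, and the ages overlapped. The change was 0.19 ± 0.10 (limma adjusted p = 0.174), with a 95% interval of -0.04 to 0.42. That interval leaves out a change as large as 2-fold on this scale, but at so dim a level the probe set says little about the transcript.

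Glrb, the beta subunit gene, was measured by 3 probe sets that stood at very different intensities. On the brightest, 1391092_at, the P1 arrays read 3267, 4061, 3735 and 3409, and the P21 arrays 4203, 4255, 4557 and 4482. All P21 arrays lay above all P1 arrays, but P1 replicate 2, at 4061, came close to the lowest P21 array, at 4203. The mean went from 3618 ± 355 to 4374 ± 172, a rise of 0.28 ± 0.10 (limma adjusted p = 0.0460), or 1.21-fold. The call was at the edge: it was lost when any 1 array other than P1 replicate 2 was left out (adjusted p from 0.0650 to 0.122), and with each array centred on its median the change was 0.14 (adjusted p = 0.423). The 95% interval of the change, 0.06 to 0.49, lies well inside the sizes seen for Glra1 and Glra2.

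The other Glrb probe sets were too dim to show this rise or its absence. Probe set 1370146_at read 329, 286, 223 and 242 at P1 and 345, 347, 248 and 238 at P21, near the filter level, with a change of 0.11 ± 0.16 (limma adjusted p = 0.618). It was high on the arrays numbered 1 and 2 and low on those numbered 3 and 4 at both ages. Probe set 1385861_x_at read between 14.7 and 41.8 on all 8 arrays, far under the filter level.

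The remaining probe sets of Glra1 and Glra2 were likewise dim at both ages. Probe set 1371156_a_at of Glra1 read 40.6 to 80.2 at P1 and 37.2 to 85.8 at P21, and 1371153_a_at of Glra2 read 41.7 to 112 at P1 and 30.0 to 124 at P21. Neither exceeded the filter level on any array. Had the filter not been applied, their limma adjusted p would be 0.615 and 0.998. The rise of Glra1 and the fall of Glra2 therefore each rest on 1 probe set. The dim Glra2 probe set read no higher at P1, where the bright one was at its highest.

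Gphn, the gephyrin gene, fell slightly. The P1 arrays read 2355, 2670, 2446 and 2316, and the P21 arrays 2010, 1716, 2305 and 1874. The ages did not overlap, but P21 replicate 3, at 2305, lay just under the lowest P1 array, at 2316. The mean went from 2447 ± 159 to 1976 ± 250, a change of -0.31 ± 0.11 (limma adjusted p = 0.0482), or 1.24-fold lower. With the replicate number as a block the adjusted p was 0.0541, and it lay between 0.0729 and 0.119 without any 1 P1 replicate or P21 replicate 1, 2 or 4. With each array centred on its median the fall was larger, 0.45, and remained a call (adjusted p = 0.0211).

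**Figure D3:**
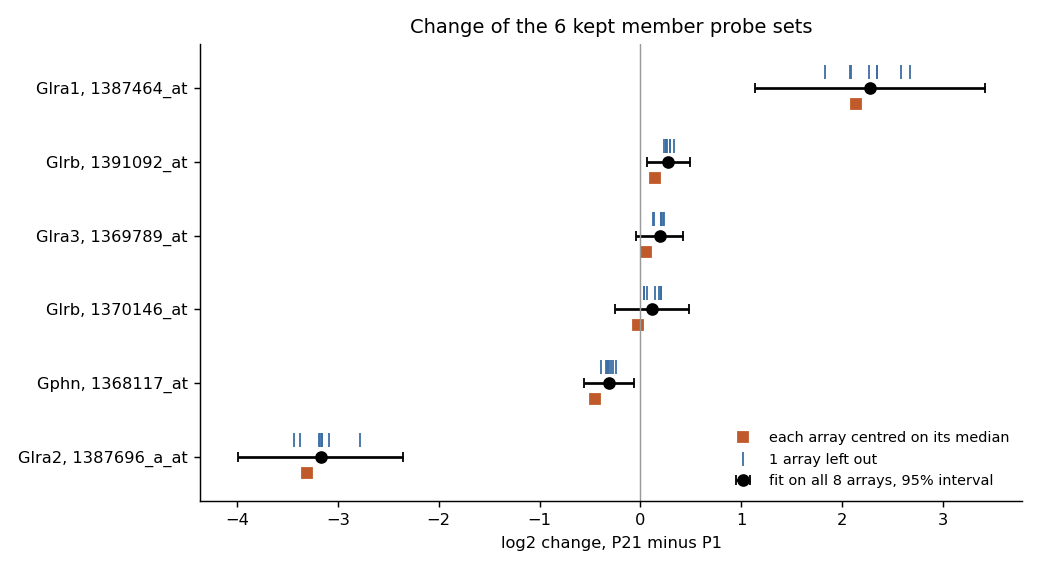
Horizontal positions give the log2 change, P21 minus P1, of the 6 tested probe sets, with black points and bars for the fit on all 8 arrays and its 95% interval, blue ticks for fits that leave out 1 array, and orange squares for arrays centred on their medians. Glra2 and Glra1 lie at -3.17 and 2.27 with intervals far from 0, while the other 4 lie between -0.31 and 0.28.

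Although the beta subunit and gephyrin moved little, they moved apart within arrays. The log2 ratio of Glrb to Gphn was 0.56 ± 0.06 at P1 and 1.15 ± 0.15 at P21, a change of 0.59, with no overlap (exact permutation p = 0.0286, adjusted p = 0.0357). This ratio does not depend on how arrays are scaled by a constant factor. Glrb rose and Gphn fell, each with no overlap, so the p was fixed in advance and adds nothing to either call. The lowest P21 array, replicate 3 at 0.98, was clear of the highest P1 array, also replicate 3, at 0.61. 

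The same test was run for all 10 pairs of the 5 genes, and 8 passed with the same p. For Glra1 with Glra2 or Gphn, and Glrb with Glra2 or Gphn, that p was fixed in advance. In those pairs 1 gene rose and the other fell, each with no overlap. That test does not use the replicate pairing, and with exact sign flips within the 4 same-numbered pairs none of the 8 passed (adjusted p = 0.139), since the smallest exact p there is 0.125. Relative to Glrb, Glra2 fell by 3.45 on the log2 scale, from 0.79 ± 0.10 to -2.66 ± 0.85. Relative to Gphn it fell by 2.86, from 1.35 ± 0.07 to -1.51 ± 0.77. Relative to Glra3 it fell by 3.36. Glra1 rose by 2.59 relative to Gphn and by 2.08 relative to Glra3. Relative to Glrb it rose by 2.00, but P1 replicate 1 lay above P21 replicate 4, at -3.28, and that pair did not pass (exact permutation p = 0.0571, adjusted p = 0.0635). Without P1 replicate 1 the Glra1 to Glrb change was 2.44 and passed (adjusted p = 0.0357). The sizes of ratios with Glra1 rest partly on its dim P1 readings, and those with Glra3 on readings close to the filter level. Glra3 rose by 0.50 relative to Gphn, and Glra3 and Glrb kept a ratio that changed by -0.09 (exact permutation p = 0.571). For Glra1 with Glra3 or Gphn the adjusted p was 0.0635 or 0.0714 without any 1 P21 replicate, and for Glra3 with Gphn it was the same without any 1 P1 replicate, sizes at which fewer splits exist.

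**Figure D4:**
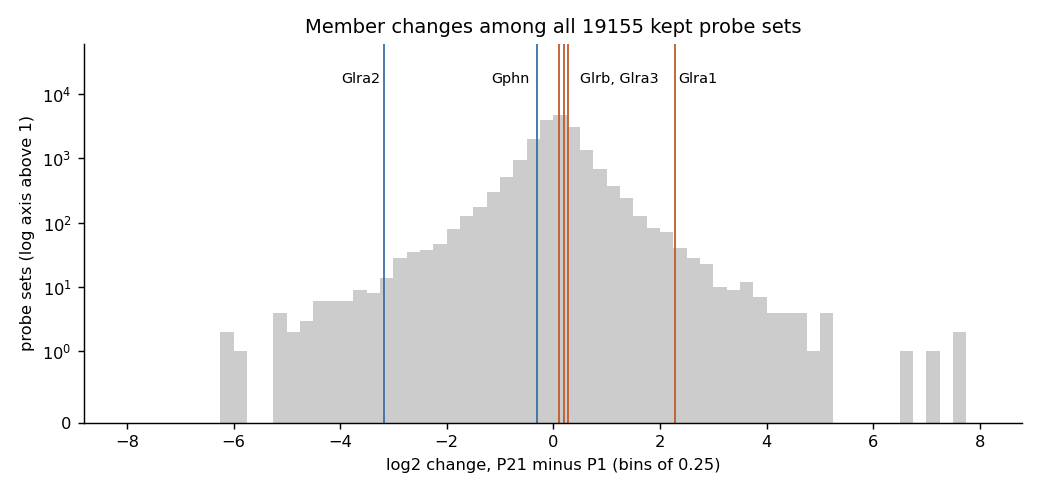
Bars count all 19155 tested probe sets by log2 change, P21 minus P1, in bins of 0.25 (vertical axis logarithmic above 1), and vertical lines mark the 6 probe sets of the glycine receptor and gephyrin genes. Glra2 at -3.17 and Glra1 at 2.27 stand in the thin tails, and the lines for Gphn, Glrb and Glra3 stand in the bulk around the median of 0.07.

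Glycine receptors are also made by interneurons and some glia, and a captured pool can hold their RNA. Of 7 motoneuron markers tested, 3 were called higher, 1 lower and 3 not. Chat, which makes acetylcholine, read 1377 ± 244 and 3451 ± 450, while Isl1, a transcription factor of motoneurons and some interneurons, fell from 790 ± 209 to 240 ± 84.4 (change -1.67 ± 0.24, limma adjusted p = 0.000491) and was above the filter level on 1 P21 array. The summed intensity of these markers was 18719 to 21232 at P1 and 20690 to 25579 at P21. Markers of inhibitory interneurons, 10 genes, summed to 7178 to 9284 and 8570 to 9437, and of 7 tested 2 were called higher and 2 lower. Slc6a5, Gad2 and Lhx5 of that list were under the filter level on every array. Excitatory interneuron markers, 5 genes, summed to 12213 to 13080 at P1 and 9593 to 10961 at P21, with 3 of 4 tested called lower and 1 higher, and a median change of -1.58. That sum is carried by bright genes, and the peptide genes Tac1 and Sst fell far more. Tac1 went from 972 ± 55.7 to 114 ± 24.0, at least 3.39-fold lower and under the filter level on every P21 array. Sst went from 3537 ± 261 to 621 ± 353 (change -2.65 ± 0.34, limma adjusted p = 0.000248). The one called higher was Cck, also a peptide gene, from 2395 ± 226 to 5215 ± 272 (change 1.12 ± 0.10, limma adjusted p = 2.19e-05). The part of such cells in the fall of Glra2 was not tested.

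Markers of glia moved with age as well. All 7 oligodendrocyte markers tested were called higher, with sums of 4983 to 6808 at P1 and 25803 to 28301 at P21. Of 8 astrocyte markers 6 were called higher and 1 lower, with sums of 10065 to 11150 and 16598 to 19977. The one lower was Slc1a3, a glutamate transporter, which fell from 3247 ± 375 to 1287 ± 352 (change -1.35 ± 0.18, limma adjusted p = 0.000291). Microglial sums were 2053 to 3281 and 2952 to 4409 and endothelial sums 2957 to 4569 and 3483 to 6453, overlapping between ages, and 2 of 4 microglial and 3 of 5 endothelial markers tested were called higher. Mobp of compact myelin read -2.65 to 23.5 on the P1 arrays and 3946 to 4940 on the P21 arrays, and Cx3cr1 and Itgam of microglia were under the filter level on every array. On P21 replicate 1, where Glra1 was brightest, the motoneuron sum was 20690, the lowest of the P21 arrays, and the inhibitory interneuron sum was 8653, within the range of the others. The part of these cells in the changes of the receptor genes was not tested.

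Around the receptor, 6 lists of genes were examined: glycine transport and release, partners of gephyrin or the receptor, the molybdenum cofactor pathway, glycine and serine metabolism, the chloride gradient, and GABA-A receptor subunits. Each gene was represented by its tested probe set of highest mean. Of 72 genes listed, 63 had a probe set and 52 were tested, and 11 were called higher, 10 lower and 31 not. That is 40.4%, against 39.5% of all 10961 genes so represented (22.1% higher and 17.4% lower), so these lists as a whole were called about as often as any gene. Their median change was -0.02, and that of all genes 0.05. In 6 of the 11 genes with more than 1 tested probe set another one had a different call, among them Slc38a1 (0.47 and -0.50, both called, beside -0.18 not called) and Gabrd (0.42 and -0.40, both called, beside -0.02 not called).

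**Figure D5:**
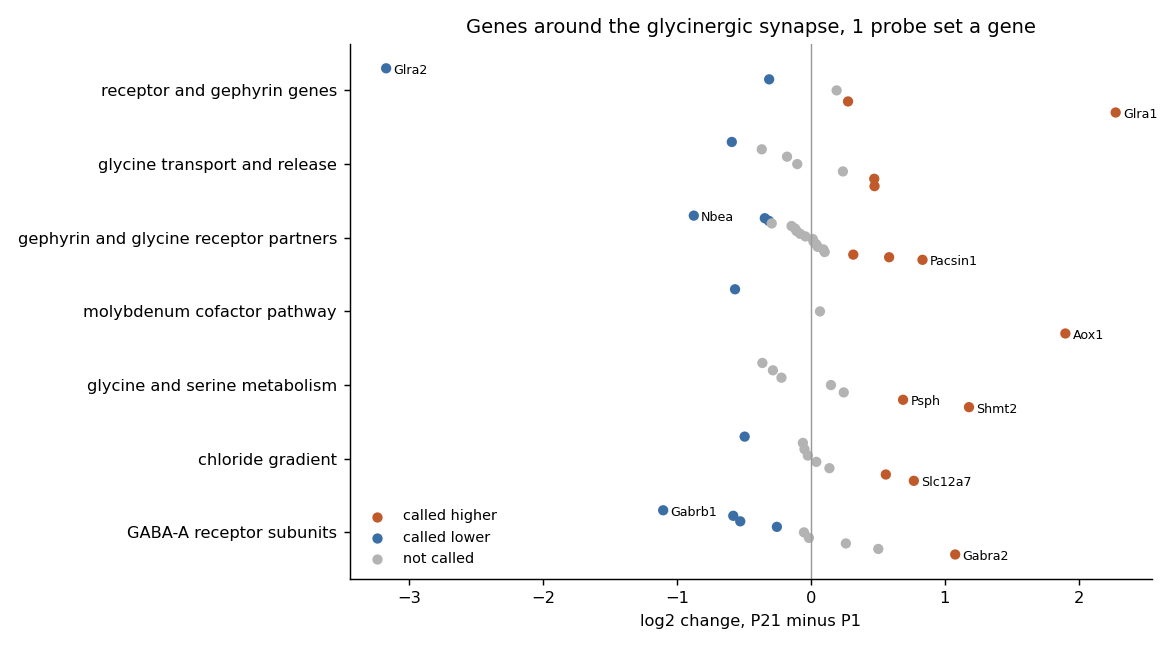
Points give the log2 change, P21 minus P1, of each tested gene by list, 1 probe set a gene, in orange where called higher, blue where called lower and grey where not called, with names for calls beyond 0.65 in size. Glra2 at -3.17 lies beyond every gene of the other 6 lists on the lower side, where Gabrb1 at -1.10 is next; the points of Glra1 (3 of 4 P1 arrays) and Aox1 (all 4) rest on P1 readings under the filter level.

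Among genes of glycine transport and release, 2 of 7 tested were called higher and 1 lower. Slc6a5, the transporter that refills glycinergic terminals, was not tested: it read 77.8 to 90.2 at P1 and 42.8 to 88.5 at P21, under the filter level throughout. Slc6a9, the transporter that clears glycine from the cleft, read 2705 ± 256 and 2544 ± 487 (change -0.10 ± 0.14, limma adjusted p = 0.596), and the ages overlapped. Slc32a1, which loads glycine and GABA into vesicles, rose from 712 ± 122 to 995 ± 193 (change 0.47 ± 0.17, adjusted p = 0.0469), on arrays that read 812, 800, 550 and 685 at P1 and 883, 822, 1256 and 1020 at P21. Slc7a10, a carrier of small neutral amino acids including glycine and D-serine, rose by 0.47 ± 0.16 (adjusted p = 0.0435), and Slc38a5, a glutamine and glycine carrier, fell by 0.59 ± 0.20 (adjusted p = 0.0415). The glutamine carriers did not pass, with changes of -0.18 for Slc38a1, 0.24 for Slc38a2 and -0.37 for Slc38a3. Slc38a3 passed without P1 replicate 2 (-0.50, adjusted p = 0.0220). Slc38a2 passed with quantile normalization (adjusted p = 0.0130), a variance trend (0.0191) or the 60th percentile filter (0.0495).

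The 3 calls of this list, Slc32a1, Slc7a10 and Slc38a5, were at the edge. The Slc32a1 call was lost with the replicate block (adjusted p = 0.0890), on centring (0.102), and on leaving out P21 replicate 1, 3 or 4 or P1 replicate 3 or 4 (0.0565 to 0.119). That of Slc38a5 was lost with the block (0.0829) and on leaving out any 1 array except a replicate 2 (0.0591 to 0.110), and that of Slc7a10 on centring (0.114) and without any 1 array but P1 replicate 1 (0.0567 to 0.113).

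Of 18 tested partners of gephyrin or the receptor, 3 were called higher, 3 lower and 12 not. Pacsin1, an endocytic adaptor that binds the beta subunit, rose from 1371 ± 165 to 2442 ± 65.7 (change 0.83 ± 0.10, limma adjusted p = 0.000205), with P1 arrays of 1170 to 1563 and P21 arrays of 2380 to 2527. Nbea, neurobeachin, a trafficking protein that also binds the beta subunit, fell from 4008 ± 168 to 2181 ± 140 (change -0.87 ± 0.09, adjusted p = 5.53e-05), with no overlap. Vasp, an actin regulator that binds gephyrin, rose by 0.58 ± 0.14 (adjusted p = 0.00804, and 0.0723 on centring). Gsk3b, a kinase that phosphorylates gephyrin, fell by 0.34 ± 0.11 (adjusted p = 0.0372, and 0.0536 to 0.0955 on leaving out P21 replicate 1, 2 or 4 or P1 replicate 1 or 3). Nlgn2, the adhesion protein of inhibitory synapses, stayed under the filter level on all 8 arrays, at 117 to 182 and 222 to 240.

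In the molybdenum cofactor pathway, of which gephyrin is the last step, 3 genes were tested. Aox1, an oxidase that needs the cofactor, rose from 86.4 ± 22.6, under the filter level on all P1 arrays, to 360 ± 24.3, at least 1.40-fold. That bound sets the P21 mean against the filter level of the P1 arrays and was not itself tested. The fitted change of 1.90 ± 0.15 (limma adjusted p = 1.29e-05) uses the dim P1 readings. Aox1 passed the filter only through its P21 arrays, so this p is weak support. Suox, sulphite oxidase, fell from 1374 ± 129 to 937 ± 211 (change -0.57 ± 0.16, adjusted p = 0.0184), a call lost without P1 replicate 4 (0.0502) or P21 replicate 2 (0.0536). The 1 other tested gene did not pass, and 3 were not tested.

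Of 7 tested genes of glycine and serine metabolism, 2 were called higher and 5 were not called. Shmt2, the mitochondrial enzyme that interconverts serine and glycine, rose from 1185 ± 163 to 2694 ± 235 (change 1.18 ± 0.12, limma adjusted p = 6.48e-05). Psph, the last enzyme of serine synthesis, rose by 0.69 ± 0.19 (adjusted p = 0.0159). Both separated the ages, with Psph at 498 to 696 at P1 and 712 to 1269 at P21.

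The genes that set the chloride gradient bear on which way current flows through these receptors. Slc12a5, the extruder KCC2 that makes glycine inhibitory, read 7067 ± 198 and 6835 ± 239 (change -0.05 ± 0.08, limma adjusted p = 0.665) and overlapped between ages. On every array it lay between the 99.1 and 99.5 percentile of intensity. So near the top of the arrays a rise may have little room to show, and saturation was not tested. Slc12a2, the importer NKCC1, rose from 3575 ± 308 to 5278 ± 507 (change 0.56 ± 0.11, adjusted p = 0.00259), with P1 arrays of 3125 to 3810 and P21 arrays of 4715 to 5821. Slc12a7, a potassium-chloride cotransporter, rose by 0.77 ± 0.09 (adjusted p = 0.000195), and Clcn2, a chloride channel, fell by 0.49 ± 0.12 (adjusted p = 0.00947). Of 8 tested in that list, 2 were called higher, 1 lower and 5 not.

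GABA-A receptor subunits share gephyrin with the glycine receptor, and of 9 tested 1 was called higher, 4 lower and 4 not. Gabra2, the alpha 2 subunit of that receptor, rose from 861 ± 200 to 1814 ± 275 (change 1.08 ± 0.18, limma adjusted p = 0.00103), with P1 arrays of 679 to 1046 and P21 arrays of 1536 to 2133. Gabrb1 fell from 3260 ± 736 to 1513 ± 341 (change -1.10 ± 0.20, adjusted p = 0.00221). Gabrb2 had a change of -0.58 ± 0.21 with an adjusted p of 0.0499, which was 0.0566 with the replicate block and 0.0760 to 0.131 on leaving out any 1 array except P21 replicate 3. P21 replicate 3, at 789, lay among its P1 arrays.

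The genes with the most similar profiles were sought among the 10961, by Pearson correlation of log2 values over the 8 arrays, which here mostly reflects the step between ages. Those nearest Glra2 were Nrsn2 (r = 0.998), Caly (0.995) and Wdr6 (0.995), each lower at P21, at least 4.50-fold for Nrsn2 and with changes of -2.15 and -1.70 for the others. Nearest Glra1 were Chst4 (0.984), C10h16orf89 (0.981) and Xiap (0.974), each higher at P21 but by only 0.53 to 0.67. Nearest Glrb were Kdm3a (0.992), Tob1 (0.985) and Gdap2 (0.984), and nearest Gphn were Magi3 (0.982), Slc2a13 (0.977) and Eml6 (0.972).

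After the mean of each age was taken out, the nearest profiles were other genes, apart from Kdm3a for Glrb (0.973). For Glra1 they were Ddx6 (0.993), Dag1 (0.990) and Luzp1 (0.982). Dag1, which encodes dystroglycan of inhibitory synapses, read 1857 ± 417 and 1808 ± 420, so it shared the differences between arrays of an age and not the rise. For Glra2 they were Hoxa7 (0.994), Hdac11 (0.988) and Mccc1 (0.987), for Glrb also Hopx (0.973) and Bet1 (0.973), and for Gphn Plcb1 (0.985), Atp11a (0.979) and Gatm (0.973). Among the group itself, deviations of Glra1 went with those of Glra3 at 0.68, and deviations of Gphn went with those of Glra2 at 0.68 and of Glrb at 0.58, while those of Glra1 went against those of Glrb at -0.58 and of Glra2 at -0.26. With 8 arrays that share scaling and 10961 genes to choose from, values this high are a description only.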

How the data were processed

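The authors deposited linear intensity values of 31042 probe sets on 8 Affymetrix arrays; their summarisation and normalization are not given in the sources used here. Array medians were 323 to 416, and the number of arrays limits precision. Values below 0 (66 to 250 an array) were set to 0, 16 was added and log2 taken. Probe sets above their array's 40th percentile on at least 4 arrays were fitted with limma 3.58.1 in R 4.3.3 (lmFit, eBayes), checked on simulated data. Of all probe sets, 20826 had a single symbol, 436 several and 9780 none. Pathway genes were represented by their brightest kept probe set. Members and lists were chosen with earlier results of these data known. Named were the members, the glycine transport genes, 8 chosen synaptic genes, and the 2 largest called rises and falls of each other list. The 3 most similar profiles of each called member were named too. Further probe sets of Slc38a1, Gabrd, Dag1 and Gabrb2 were also named after their values were seen.

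Litters were divided between ages, and deviations of same-numbered arrays correlated at 0.514, 0.321, 0.558 and 0.150, each above 0.1, which was taken as pairing. Differently numbered arrays correlated between -0.458 and 0.366. P1 replicate 4 correlated more with P21 replicate 3 (0.366) than with P21 replicate 4 (0.150), so pairing by number is not shown for number 4. Results that use the pairing carry this limit. Alternatives were pseudocounts of 1 and 64, no filter or the 60th percentile, median centring, quantile normalization, a variance trend, the replicate block and leaving out each array.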

Additional observations from a re-analysis of the deposited data

Results flagged for a closer look

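In 6 of 144 combinations of probe set and age examined, the highest or lowest of the 4 arrays stood apart from the others by Dixon's criterion. The criterion was applied to linear intensities, not to the log2 values of the fits. For normally spread values chance alone gives about 1 in 20 such groups, or 5%, so this number is within what chance gives. Linear intensities need not be so spread. Among the receptor genes, Glra1 read 2186 on P21 replicate 1, and 446 to 741 on the other P21 arrays. Slc38a3 read 717 on P21 replicate 4 and 968 to 1018 on the others. Nlgn2, under the filter level, read 221.5 on P21 replicate 4 and 237 to 240.2 on the others. Mocs2, of the molybdenum cofactor pathway, read 1113 on P1 replicate 1 and 1629 to 1728 on the others. Xdh, xanthine dehydrogenase, read 456 on P21 replicate 4 and 179 to 213 on the others. Dld, a subunit of the glycine cleavage system, read 2631 on P1 replicate 2 and 1858 to 1972 on the others.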

How the results depend on the processing

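Glra2 kept its fall in all 16 alternatives and Glra1 its rise in all 15 that could be run. At the 60th percentile filter its probe set was not kept. The small calls of Glrb and Gphn did not hold throughout. For Glrb the change was 0.28 with no filter (adjusted p = 0.0921), 0.14 with median centring (0.423) and 0.23 to 0.33 leaving out 1 array. For Gphn it was -0.31 with no filter (0.0930), -0.31 with the replicate block (0.0541) and -0.39 to -0.25 leaving out 1 array. Members called higher numbered 1 with no filter, with the 60th percentile filter or with median centring, and 1 to 2 leaving out 1 array. Members called lower numbered 1 with no filter or with the replicate block, and 1 to 2 leaving out 1 array. Under sign flips within the replicate pairing the log2 ratio of Glra1 to Glra2 changed by 5.45, and it and the 7 other ratios that had passed no longer did (adjusted p = 0.139), where 4 pairs allow no smaller exact p than 0.125. Median centring called 2631 probe sets higher against 3990, and 7 genes of the pathway lists higher against 11, and shifted the median change from 0.07 to -0.07. Genes of those lists called lower numbered 4 with no filter, and 4 to 8 leaving out 1 array, against 10. Of 17 called pathway genes that were named, 10 kept their call in every alternative. The replicate block ended no call but those given for Gphn, Slc32a1, Slc38a5 and Gabrb2 among the named. The cause of these shifts was not tested.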
